A study of Homo sapiens with 6 samples.

Results

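The genes described here encode proteins that carry copper or organic cations across membranes, or hand copper on inside the cell, and that have been linked to the handling of platinum drugs. They were chosen by symbol from the deposited count table, 9 genes of 27942, by a rule that uses no measured value, though with earlier results of these data known. SLC31A1 and SLC31A2 encode the copper transporters CTR1 and CTR2, ATP7A and ATP7B the copper-exporting ATPases, ATOX1 and CCS copper chaperones, SLC22A2 and SLC22A3 the organic cation transporters OCT2 and OCT3, and SLC47A1 the extrusion transporter MATE1. RNA came from HCT116, an established human colorectal carcinoma line, kept untreated (NT, 3 libraries) or given oxaliplatin at 0.5 µM (OXA, 3 libraries) for 24 h, a dose that the labels call the IC50. Both groups are the same parental line in the same medium, with no transgene or knockdown, and the labels do not say whether libraries of a group came from separate cultures, so p-values measure the spread between these libraries.

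Of the 9 genes, 7 had at least 1 count and 6 passed the filter on low counts, against 13727 of all genes. No member passed the threshold in the comparison of OXA with NT, where 5.07% of all genes tested did. The ratios of SLC31A1 to SLC31A2 and to ATP7A were lower in every OXA library than in every NT library (exact permutation p = 0.1 for each, 0.2 adjusted over 4 ratios). Both ratios share the SLC31A1 counts, and exons of FKBP15 overlap 64% of the merged exons of SLC31A2. Among single genes, 28.9% of all tested had groups without overlap, and the share among ratios of other gene pairs was not computed. SLC22A2 and SLC22A3 had no count in any library. SLC31A1 was lower in OXA (log2 fold change -0.25, edgeR adjusted p = 0.278), with groups that overlapped. It passed the threshold when same-numbered libraries were treated as pairs, in a fit that called 10.9% of all genes lower and 23% in either direction.

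Oxaliplatin is a platinum complex that enters cells in part through transporters with other natural cargoes. CTR1 sits in the plasma membrane and brings copper into the cell. ATOX1 takes copper in the cytosol to ATP7A and ATP7B, which pump it into the trans-Golgi network or out of the cell, and CCS takes it to superoxide dismutase 1. CTR2 lies mostly in endosomes and lysosomes. OCT2 and OCT3 are uptake carriers for organic cations, OCT2 being best known from the kidney, where MATE1 passes such cations on into urine in exchange for protons.

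ATOX1, CCS, ATP7A and ATP7B share a feature that the choice of genes did not use, a short metal-binding motif of methionine, any residue, cysteine, any pair of residues and cysteine, through which these proteins are known to hold copper. The stretches of the canonical coding sequences that spell it are shown because both chaperones and both pumps carry them. They were read 5′ to 3′ from the GENCODE release 44 transcripts (GRCh38), in frame on the coding strand, and the capitals mark the ATG codon and the TGC or TGT codons. ATOX1 and CCS carried 1 match each, ATP7A and ATP7B 6 each, and the other 5 members none.
ATOX1: ATGaccTGTggaggcTGT
CCS: ATGaccTGTcagagcTGT
ATP7A match 1: ATGactTGCaattccTGT
ATP7A match 2: ATGaccTGCcattcaTGT
ATP7A match 3: ATGcatTGTaaatcaTGT
ATP7A match 4: ATGactTGTaattccTGT
ATP7A match 5: ATGactTGCgcttccTGT
ATP7A match 6: ATGacgTGTgcctccTGC
ATP7B match 1: ATGactTGCcagtcaTGT
ATP7B match 2: ATGaccTGCcagtccTGT
ATP7B match 3: ATGcatTGTaagtctTGC
ATP7B match 4: ATGaccTGTgcatccTGT
ATP7B match 5: ATGaccTGTgcatccTGT
ATP7B match 6: ATGaccTGCgcgtccTGT
Of 20046 coding sequences searched, 257 (1.28%) held the pattern at least 1 time, and 2 held it at least 5 times, which were ATP7A and ATP7B. In ATOX1 the match covered codons 10 to 15 in exon 2, at chr5:151751741-151751758 on the minus strand, and in CCS codons 20 to 25 in exon 2, at chr11:66593660-66593677 on the plus strand. In ATP7A the 6 matches lay in exons 2, 3, 4, 4, 5 and 7, between codons 17 and 578 of 1500, and in ATP7B in exons 2, 2, 2, 2, 3 and 5, between codons 67 and 578 of 1465. The fifth and the sixth match begin at codons 497 and 573 in both ATPases.

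The 6 libraries held between 32979521 and 40967880 counts. As a check of the treatment, the p53 target genes CDKN1A and MDM2 were 7.60-fold and 4.66-fold higher in OXA (edgeR adjusted p = 0.000445 for both). All 6 epithelial markers looked up (EPCAM, CDH1, KRT8, KRT18, VIL1 and CDX2) were detected in every library. Of markers of blood, stromal and endothelial cells, PTPRC, CD3E, COL1A2, PECAM1 and CDH5 had at most 7 raw counts in a library, whereas COL1A1 had between 107 and 273. NT library 1 stood apart from the other NT libraries. In the fifth of the tested genes with the highest GC content (58.6% or more), its log2 level was lower than the mean of NT libraries 2 and 3 by a median of -0.826, and in the fifth with the lowest (40.9% or less) it was higher by 0.228. For OXA library 1 against OXA libraries 2 and 3 these medians were -0.287 and 0.104.

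Levels of different genes were compared as CPM, the usual scaling of counts to library size, per kilobase of the canonical transcript. ATOX1 was the highest member in NT, at 55.2 ± 17.7 (mean ± SD, n = 3), which put it at percentile 91 of the tested genes. SLC31A1 followed at 16.9 ± 1.91 (percentile 72) and CCS at 5.44 ± 2.11 (percentile 43.9). ATP7A (2.703 ± 0.184), ATP7B (2.42 ± 0.255) and SLC31A2 (2.27 ± 0.143) lay close together. NT libraries of ATP7A ranged from 2.50 to 2.85, those of ATP7B from 2.15 to 2.65 and those of SLC31A2 from 2.11 to 2.39, so that ATP7A overlapped with ATP7B and ATP7B with SLC31A2. CTR1 mRNA was thus present at a higher level per length than CTR2 mRNA in every library. The order at the top depended on the length used. Per kilobase of all merged exons of a gene, SLC31A1 had 15.6 in NT and ATOX1, whose merged exons of 5239 bases are far longer than its canonical transcript of 471 bases, had 4.96. On that scale CCS had 2.71, SLC31A2 1.58, ATP7B 0.848 and ATP7A 0.816.

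**Figure D1:**
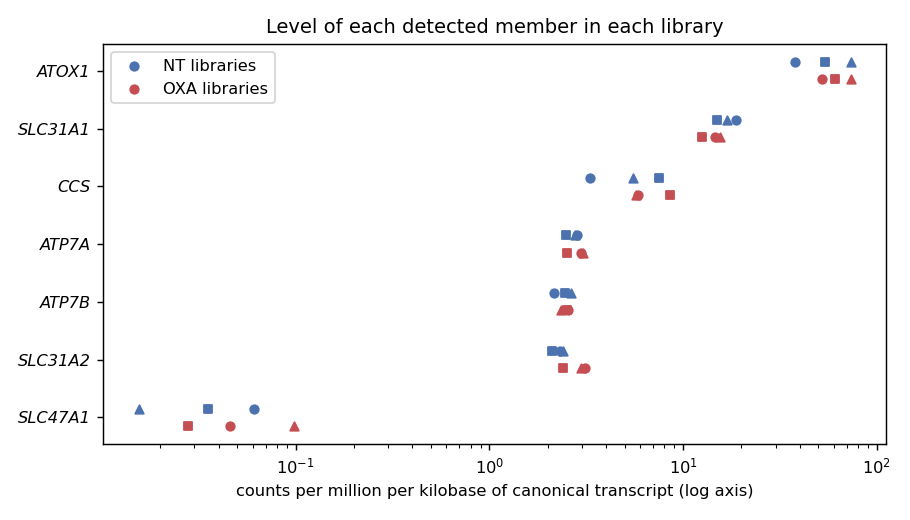
Level of the 7 detected members in each library, in CPM per kilobase of canonical transcript on a log axis, with NT in blue and OXA in red and the circle, square and triangle for libraries 1, 2 and 3. ATOX1 lies highest, at 37.9 to 73.3 in NT, and SLC47A1 lowest, at 0.0155 to 0.0606 in NT.

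The first comparison asks whether mRNA of the copper importer differed after exposure to oxaliplatin. SLC31A1 (ENSG00000136868, 5 exons, plus strand of chromosome 9 from 113221544 to 113264492 on GRCh38) had 3219, 2564 and 2902 normalised counts in NT libraries 1 to 3 and 2495, 2153 and 2652 in OXA libraries 1 to 3. Each OXA library was below the NT library of its number, but OXA library 3 was above NT library 2, so the groups overlapped. The means were 2895 ± 328 and 2433 ± 255 (SD, n = 3), a log2 fold change of -0.25 (standard error 0.12, 95% interval -0.53 to 0.028, edgeR adjusted p = 0.278). The interval spans a fold of 0.693 to 1.02, so a fall by more than 1.5-fold lies outside its limits. In RNA from whole cultures, less RNA per cell and fewer cells that express the gene cannot be told apart.

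NT and OXA libraries of the same number shared deviations from the means of their groups, so these were also fitted as pairs, with their number as a block. In that fit, SLC31A1 had the same log2 fold change of -0.25 with a narrower interval of -0.41 to -0.093 (edgeR adjusted p = 0.0413). Within the pairs, SLC31A1 in OXA differed from NT by -22.5%, -16% and -8.62% for numbers 1, 2 and 3. In NT library 1 SLC31A1 lay 0.239 above the other NT libraries on the log2 scale, and without that library the unblocked log2 fold change was -0.167, or -0.185 without library 1 of both groups (edgeR adjusted p = 0.395 and 0.464). It was the only member called in the blocked fit, 1 of 6 tested, where 10.9% of all genes tested were called lower and 23% were called in either direction. When each library's dependence on transcript GC content and length was also taken out of the blocked fit, a setting added after the data had been seen, the log2 fold change was -0.18 (edgeR adjusted p = 0.00711), in a fit that called 45.6% of all genes.

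SLC31A2 (ENSG00000136867, 4 exons, plus strand of chromosome 9 from 113150976 to 113164140) lies 57403 bases upstream of SLC31A1 on the same strand. It had 144, 131 and 148 normalised counts in NT and 194, 148 and 184 in OXA. Every OXA library was above every NT library, although OXA library 2 and NT library 3 nearly met, at 148.3 and 147.8. The means were 141 ± 8.88 and 175 ± 23.8, a log2 fold change of 0.31 (standard error 0.17, 95% interval -0.077 to 0.70, edgeR adjusted p = 0.334, and 0.13 with the block). It was the only tested member whose groups did not overlap in these counts, 1 of 6. Of all genes tested, 14.5% had every OXA library above every NT library, and 28.9% had no overlap in either direction. In the normalised values that the authors deposited, the SLC31A2 groups overlapped, with 147.5 in OXA library 2 and 149.4 in NT library 3. Exons of FKBP15, a gene on the opposite strand, overlap 64% of the merged exons of SLC31A2, and although the library kit was stranded, the strand setting of the counting is not given in the sources used here, so reads of the pair cannot be told apart. FKBP15 averaged 1418 ± 85.6 normalised counts in NT and 1533 ± 54.8 in OXA, a log2 difference of 0.11 (edgeR adjusted p = 0.544), so its level was several times that of SLC31A2, and its part in the SLC31A2 counts was not tested.

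**Figure D2:**
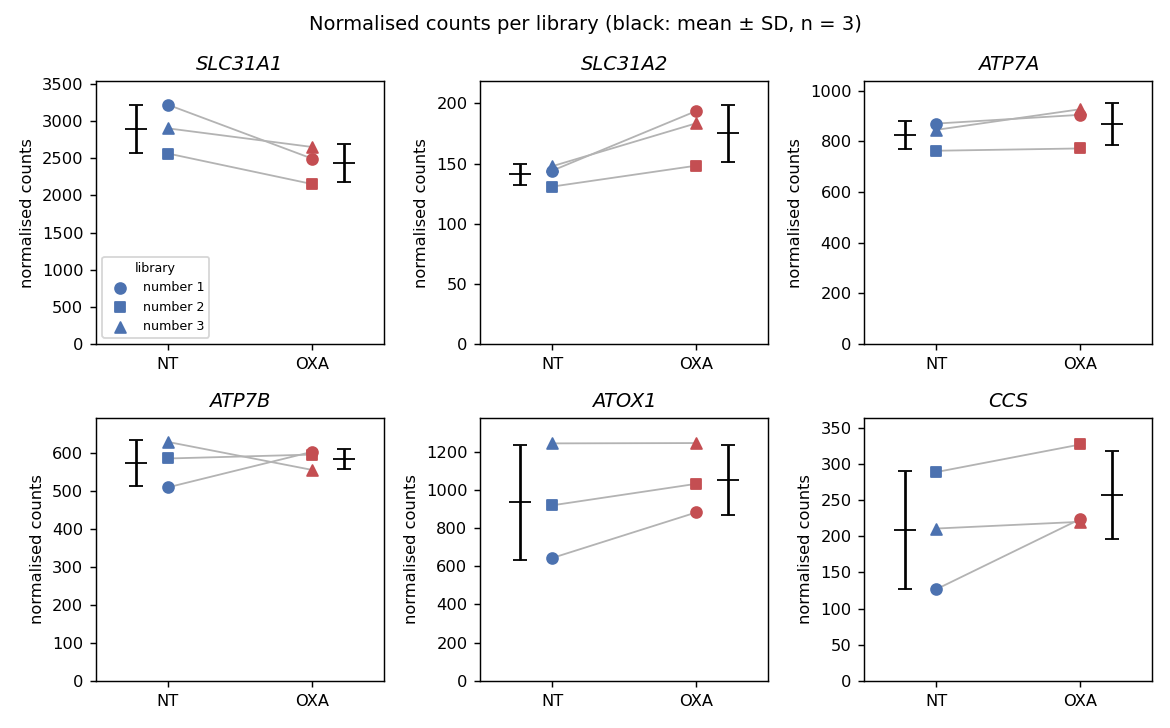
Normalised counts of the 6 tested members in each library, on axes from 0, with grey lines that join libraries of the same number and black bars for the mean ± SD (n = 3). SLC31A1 is lower and SLC31A2, ATP7A, ATOX1 and CCS are higher at the OXA end of all 3 lines, and the ATOX1 and CCS libraries spread most within NT, with 643 and 127 in NT library 1.

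A ratio of raw counts within a library needs no scaling between libraries. SLC31A1 had 22.3, 19.6 and 19.6 counts for each SLC31A2 count in NT and 12.9, 14.5 and 14.4 in OXA. The groups did not overlap, with a mean log2 ratio of 4.36 ± 0.109 in NT and 3.8 ± 0.098 in OXA (SD, n = 3). The difference of -0.56 on the log2 scale had an exact two-sided permutation p of 0.1, the smallest that 3 libraries against 3 can give (0.2 after Benjamini-Hochberg adjustment over the 4 ratios computed), so this test could not reach 0.05. Leaving out any 1 library kept the difference between -0.59 and -0.49. Among single genes, 28.9% of all tested had groups without overlap, and how often ratios of other gene pairs separate was not computed. The part of FKBP15 reads in the SLC31A2 counts, and so in this ratio, was not tested.

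The ratio of SLC31A1 to ATP7A, copper importer to exporter, was 3.70, 3.36 and 3.43 in NT and 2.76, 2.79 and 2.86 in OXA. Here too all OXA libraries lay below all NT libraries, though both ratios share the SLC31A1 counts, and the spread within OXA was small (log2 ratio 1.81 ± 0.073 in NT and 1.49 ± 0.027 in OXA). The difference was -0.32 on the log2 scale, with the same exact permutation p of 0.1 (0.2 adjusted). By contrast, ATP7A to ATP7B gave 1.71, 1.301 and 1.34 in NT against 1.498, 1.29 and 1.67 in OXA, with overlap (difference 0.039, exact permutation p = 1). ATOX1 to CCS gave 5.07, 3.18 and 5.90 in NT against 3.94, 3.15 and 5.66 in OXA, and its groups overlapped as well (difference -0.15, exact permutation p = 0.7, 0.933 adjusted).

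**Figure D3:**
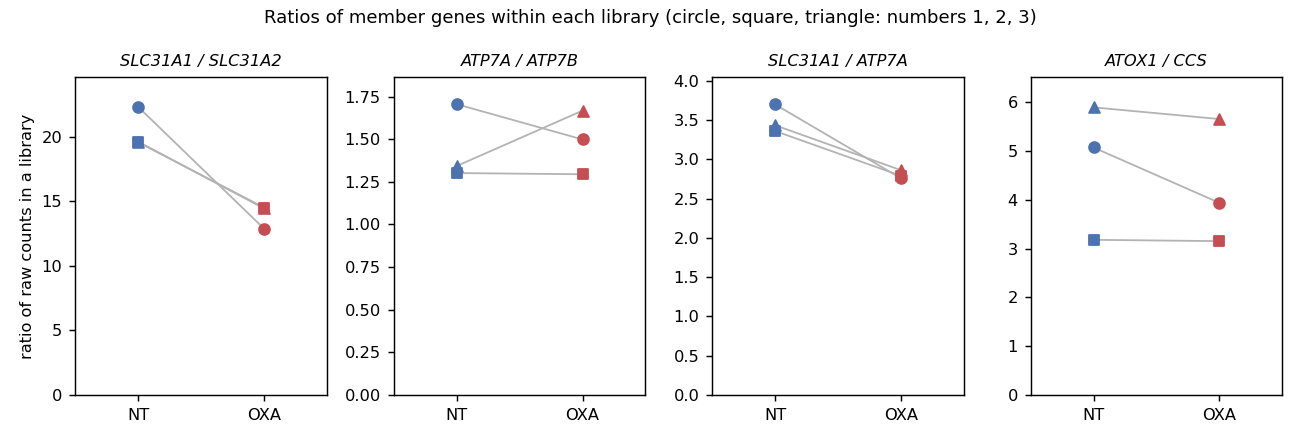
Ratios of raw counts of member genes within each library, on axes from 0, with NT in blue, OXA in red and grey lines between libraries of the same number. SLC31A1 to SLC31A2 is 19.6 or more in NT and 14.5 or less in OXA, and SLC31A1 to ATP7A 3.36 or more and 2.86 or less, while the other ratios overlap.

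Neither exporter passed the threshold with or without the block, and both had overlapping groups, but ATP7A was called higher when GC content and length trends were removed in the blocked fit (log2 fold change 0.17, edgeR adjusted p = 0.0223), which called 45.6% of all genes. ATP7A (ENSG00000165240, 23 exons, plus strand of chromosome X from 77910690 to 78050395), the ATPase mutated in Menkes disease, had 869.9, 763 and 845 normalised counts in NT and 904.5, 772 and 927 in OXA. The means of 826 ± 56.1 and 867.7 ± 83.7 gave a log2 fold change of 0.071 (standard error 0.12, 95% interval -0.20 to 0.34, edgeR adjusted p = 0.779). OXA was above NT within each pair, by 3.96%, 1.19% and 9.66%, but the sign of the fold change turned without NT library 2 (-0.015) or OXA library 3 (-0.012). ATP7B (ENSG00000123191, 21 exons, minus strand of chromosome 13 from 51930436 to 52012125), the ATPase mutated in Wilson disease, had 510.1, 586 and 629.7 in NT and 604, 596 and 556 in OXA. The NT libraries enclosed the OXA libraries (575 ± 60.5 and 585 ± 25.7, log2 fold change 0.025, standard error 0.12, 95% interval -0.26 to 0.31, edgeR adjusted p = 0.932). For both pumps the interval leaves room for changes up to a fold of 1.27 for ATP7A and 1.24 for ATP7B.

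The chaperones varied more between libraries of a group than between the groups. ATOX1 (ENSG00000177556, 4 exons, minus strand of chromosome 5 from 151742316 to 151772532) had 643, 919 and 1243 normalised counts in NT and 882, 1031 and 1245 in OXA (935 ± 300.3 and 1053 ± 182, log2 fold change 0.17, standard error 0.24, 95% interval -0.38 to 0.73, edgeR adjusted p = 0.735). CCS (ENSG00000173992, 8 exons, plus strand of chromosome 11 from 66593153 to 66606019) had 127, 289 and 211 in NT and 224, 327 and 220.1 in OXA (209 ± 81.1 and 257 ± 60.7, log2 fold change 0.30, standard error 0.31, 95% interval -0.41 to 1.01, edgeR adjusted p = 0.631). In both genes the lowest library was NT library 1, which lay lower than the mean of the other NT libraries by -0.733 for ATOX1 and -0.961 for CCS on the log2 scale. Their canonical transcripts had the highest GC content of the 9 members, 56.7% for ATOX1 and 61.6% for CCS, against 38.9% for ATP7A and 44.1% for SLC31A1, and the part of GC content in their low NT library 1 was not tested. When 1 library was left out, the log2 fold change ranged from -0.038 (without NT library 1) to 0.403 (without NT library 3) for ATOX1 and from 0.041 (without NT library 1) to 0.577 (without NT library 2) for CCS. Without library 1 of both groups it was 0.075 for ATOX1 and 0.129 for CCS, and in the blocked fit with trends removed -0.066 and 0.065. Within the pairs, OXA was higher by 37.2%, 12.3% and 0.139% for ATOX1 and by 76.7%, 13.2% and 4.39% for CCS, and the edgeR adjusted p with the block was 0.196 and 0.205. SOD1, which receives copper from CCS, averaged 10389 ± 721 normalised counts in NT and 11350 ± 426 in OXA, a log2 difference of 0.13 (edgeR adjusted p = 0.454).

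**Figure D4:**
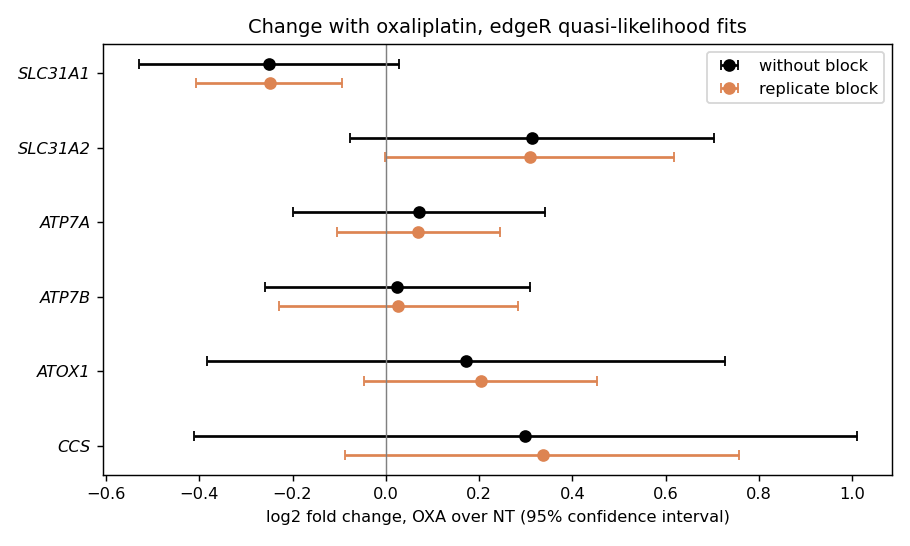
Log2 fold change of OXA over NT of the 6 tested members with 95% confidence intervals, from the edgeR fit without a block (black) and with same-numbered libraries as a block (orange). The only interval that lies wholly on 1 side of 0 is that of SLC31A1 in the blocked fit, from -0.41 to -0.093.

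Over the 6 tested members, 0 were called at an edgeR adjusted p under 0.05, where 5.07% of all genes tested were, and DESeq2 likewise called 0 of 6, where it called 9.05% of all genes. An unadjusted p under 0.05 was reached by 0 of the 6 in edgeR, in DESeq2 and in limma-voom, where edgeR gave 21.7% of all genes. Of the 6 members, 5 had a log2 fold change above 0, as had 7313 of all 13727 genes tested. The median was 0.12 for the members beside 0.023 for all genes tested. The signs of ATP7A, ATP7B and ATOX1 turned in some of the alternative fits.

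The organic cation carriers had no or few counts. SLC22A2 (ENSG00000112499, minus strand of chromosome 6 from 160171061 to 160277638) and SLC22A3 (ENSG00000146477, plus strand of chromosome 6 from 160348378 to 160452577), neighbours 70739 bases apart, had 0 raw counts in all 6 libraries. With a limit of 3 counts, this allows up to 0.0732 to 0.091 CPM, depending on the library, and covers counting error only. In SLC47A1 (ENSG00000142494, plus strand of chromosome 17 from 19495385 to 19579034), raw counts were 7, 4 and 2 for NT and 5, 3 and 13 for OXA, and it did not pass the filter on low counts. The groups overlapped, and the sums of 13 counts (exact Poisson 95% interval 6.92 to 22.2) and 21 counts (13 to 32.1) have overlapping intervals. In SLC22A2 and SLC22A3, a difference between NT and OXA below these CPM limits was not detectable at this depth. A small difference in SLC47A1 could not be resolved with so few counts.

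Among 12 other transporters of organic cations or of related substrates, 9 were tested and 1 was called, SLC44A1, which encodes a choline transporter. It had 6324, 5051 and 5819 normalised counts in NT and 3987, 3564 and 4321 in OXA, with every OXA library below every NT library. The difference was -0.53 on the log2 scale (SE 0.12), at an edgeR adjusted p of 0.0429. Of all genes tested, 2.29% were called lower and 2.78% higher. SLC44A1 kept its call in 2 of 6 fits that each left out 1 library and lost it without NT library 3 or any 1 of the OXA libraries, where the highest edgeR adjusted p was 0.173. The median log2 fold change of the 9 was 0.086.

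Another uptake route known for platinum drugs is the volume-regulated anion channel, built from LRRC8 subunits. Of its 5 subunits and TMEM205, a membrane protein linked to cisplatin resistance, 0 were called in edgeR, whereas 1 was higher and 1 lower at an unadjusted p under 0.05, as were 21.7% of all genes in either direction. Both were also called in the blocked fit, as were 23% of all genes, and had groups without overlap, as had 28.9%. LRRC8C had 1764, 1459 and 1642 normalised counts in NT and 1136, 976 and 1333 in OXA, with no overlap, a difference of -0.50 on the log2 scale (SE 0.14) at an edgeR adjusted p of 0.0856, or 0.014 with the block. For TMEM205 the libraries had 494, 663 and 587 in NT and 741, 797 and 707 in OXA, again without overlap, a log2 difference of 0.36 (SE 0.14) at an edgeR adjusted p of 0.174, or 0.0423 with the block. LRRC8C was called lower by DESeq2 too (adjusted p = 0.0286).

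Copper is also handled by proteins outside this set, and a list of 28 further genes, with 29 entries since SCO2 has a pair of identifiers, covered mitochondrial copper delivery, metalloreductases, copper enzymes and regulators. Of the 27 entries tested, 1 was called higher and 1 lower, where 2.78% of all genes tested were called higher and 2.29% lower. The median log2 fold change of the entries was 0.041. The lower gene was HEPH, which encodes the copper-dependent ferroxidase hephaestin, with 36.8, 40.5 and 34.7 normalised counts in NT and 16.2, 19.6 and 15.1 in OXA, a difference of -1.13 on the log2 scale (SE 0.25) at an edgeR adjusted p of 0.0474. HEPH was low in count, and its adjusted p lay between 0.0637 and 0.191 in the 6 fits that each left out 1 library, although the groups did not overlap. The higher entry was the less abundant of the SCO2 identifiers (ENSG00000284194). It had 0, 4 and 0 raw counts for NT and 14, 21 and 24 for OXA (edgeR adjusted p = 0.0426). In 2 of 6 fits that left out 1 library it was called. Only its OXA libraries carried it over the filter's minimum count of 10. It was thus tested because it was high in OXA, and its call is no support for a rise. Its reads may also be shared with the other identifier (ENSG00000130489, log2 fold change 0.23, edgeR adjusted p = 0.869), so its change is uncertain.

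In the blocked fit, 2 of these entries were higher and 4 lower, where 12.1% of all genes were called higher and 10.9% lower. STEAP3, which encodes a metalloreductase, was called higher (log2 fold change 0.34, edgeR adjusted p = 0.0227 with the block). The other higher entry was the less abundant SCO2 identifier, which passed the filter through OXA alone. CUTC (-0.35, adjusted p = 0.0189), SP1 (-0.35, adjusted p = 0.0109) and PAM (-0.19, adjusted p = 0.0364), which encodes a copper-dependent amidating enzyme, joined HEPH as lower on the log2 scale in the blocked edgeR fit. With no block, CUTC and SP1 had an edgeR adjusted p of 0.093 and 0.0896, with every OXA library below every NT library. STEAP3 had 0.102 in that edgeR fit, with every OXA library above every NT library, and PAM an adjusted p of 0.533 with overlapping groups.

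**Figure D5:**
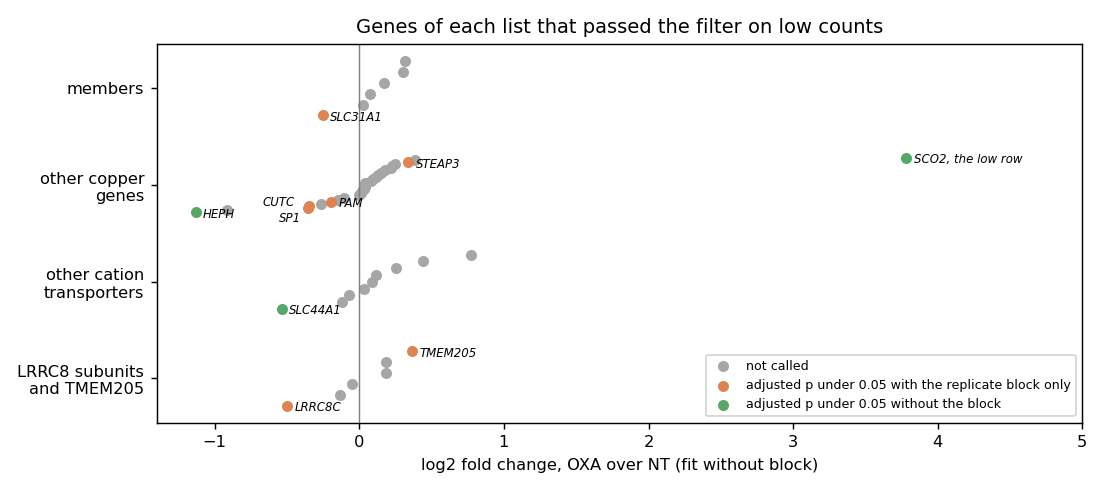
Log2 fold change of OXA over NT, from the fit without a block, of every gene that passed the filter on low counts in the member set and in the 3 other lists, with called genes in green and those called with the replicate block alone in orange. Members lie between -0.25 and 0.31, and HEPH (-1.13) and the less abundant SCO2 entry (3.78, a fitted value that rests on few counts) lie farthest from 0.

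SP1 encodes a zinc finger factor that binds GC boxes and is known to drive SLC31A1 transcription in response to copper. It had 8898, 7704 and 7479 normalised counts in NT and 6700, 5872 and 6279 in OXA. The SLC31A1 promoter is shown because both SLC31A1 and SP1 were lower in the blocked fit, which called 10.9% of all genes lower. Without the block neither gene was called (edgeR adjusted p = 0.278 for SLC31A1 and 0.0896 for SP1). DESeq2 did not call SP1 either (adjusted p = 0.0721), and SP1 was named after its values were seen. Whether the SP1 level bears on that of SLC31A1 was not tested. The promoter is the RefSeq window of 300 bases at chr9:113221294-113221593 on the plus strand of GRCh38.p14. Capitals mark the GC box GGGCGG, searched on both strands.
SLC31A1: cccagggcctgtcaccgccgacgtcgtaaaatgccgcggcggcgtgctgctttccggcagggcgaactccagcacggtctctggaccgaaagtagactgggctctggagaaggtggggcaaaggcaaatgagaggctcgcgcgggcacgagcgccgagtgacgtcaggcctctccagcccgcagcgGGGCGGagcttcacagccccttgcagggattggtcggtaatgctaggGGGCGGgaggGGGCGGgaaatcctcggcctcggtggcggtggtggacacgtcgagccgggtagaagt
The window held 3 matches, and 15.8% of 35116 promoter windows of that length hold 3 or more and 45% at least 1. The core of the metal response element, TGCACNC or TGCGCNC on either strand, had 0 matches in the SLC31A1 window and at least 1 in 29.6% of all windows. The 3 matches are not particular to SLC31A1, since the 3 windows of ATP7B held 3, 3 and 0, that of ATOX1 2, that of SLC22A2 1 and those of ATP7A and CCS 0. These matches describe letters in a window and say nothing of binding.

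The genes whose log2 levels followed a member most closely over the 6 libraries were named by Pearson correlation, as a description of libraries that share their groups and numbers. For SLC31A1 they were CBFB, UBE2Q2 and STAG1 (r from 0.997 to 0.998), for SLC31A2 PARD6B, AC073508.2 and SYT13 (0.991 to 0.994) and for ATP7A TRIM4, EDEM3 and CHP1 (0.991 to 0.993). For ATP7B they were UNC5CL, FKBP1B and GNAS (0.969 to 0.992), for ATOX1 FLCN and DDT (0.994 to 0.996) and for CCS RPS2, ZYX and MYH9 (0.999). With 6 libraries such values were common, and 347 of 13726 genes had r over 0.95 with SLC31A1, 658 with CCS and 8 with ATP7B, whereas Spearman's rho was over 0.95 for 93, 125 and 3. Among the members, SLC31A1 and CCS ran opposite to each other (r = -0.906), and SLC31A2 and ATP7A ran together (r = 0.813). NT library 1, which stood apart by GC content, differed from the other NT libraries by 0.239 for SLC31A1 and -0.961 for CCS on the log2 scale. Its part in these correlations was not tested.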

How the data were processed

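RNA-seq libraries of polyadenylated RNA from HCT116 cells (3 NT, 3 OXA) were grouped by the sample labels, and all 6 were used. The deposited table gives an estimated count and a normalised signal per gene and library. The estimated counts were deposited as whole numbers, and the submitters' processing notes name Trimmomatic 0.32, STAR 2.7.5b, RSEM 1.3.3 and DESeq2 with GRCh38, so they may be rounded RSEM estimates, in which reads shared between genes are divided. The strand setting is not given in the sources used here. The authors' normalised signal, the estimated count times a factor that differs between genes and libraries, was used for an alternative alone.

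Genes were filtered with filterByExpr (minimum count 10, minimum total 15), scaled by TMM and tested in R 4.3.3 by the quasi-likelihood test of edgeR 4.0.16, and DESeq2 1.42.0 and limma 3.58.1 served for alternatives. P-values of all 13727 tested genes were adjusted together (Benjamini-Hochberg), with a threshold of 0.05. Normalised counts are TMM-scaled to the mean library. The steps were run on simulated counts that held planted changes but no effect of library number or GC content. That run does not show how the blocked or trend-removed fits behave with such effects. Same-numbered NT and OXA libraries had correlations of 0.547, 0.542 and 0.307 between their deviations from the group means, each over the limit of 0.1, while those of different numbers ranged from -0.467 to 0.09. Labels give these numbers without saying what they stand for. No libraries of a group were duplicates within counting error (chi-square per gene from 19.2 to 83.1). Positions and lengths came from GENCODE release 44, promoters from RefSeq. Log2 levels for correlations used a prior count of 2. Members and lists were chosen with earlier results of these data known. Named were all members, SOD1, CDKN1A, MDM2, called genes of the other lists or, with none called, those with the largest rise and fall, and the 3 genes most correlated with each tested member, except for some items that are not reported here. STEAP3, CUTC, SP1, PAM, FKBP15 and the other SCO2 identifier were named after their values were seen. Alternatives were other scaling factors, filters and tests, the replicate block, each library left out and the authors' values as log2(value + 1).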

Additional observations from a re-analysis of the deposited data

How the results depend on the processing

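Of the 17 alternatives to the edgeR fit, SLC31A1 kept its direction in all and was called in 2, both with the replicate block. The blocked fit called 1 member lower (SLC31A1, log2 fold change -0.249), and with trends on GC content and length removed, which was added after the data had been seen, 1 lower (SLC31A1, -0.178) and 1 higher (ATP7A, 0.171). Of all genes tested, the blocked fit called 23%, and 45.6% with the trends removed. Leaving out each library gave log2 fold changes from -0.363 to -0.167 for SLC31A1, from 0.23 to 0.42 for SLC31A2, from -0.015 to 0.149 for ATP7A, from -0.055 to 0.064 for ATP7B, from -0.038 to 0.403 for ATOX1 and from 0.041 to 0.577 for CCS, with 0 members called. ATP7B turned sign with upper-quartile factors (-0.014), library totals alone (-0.015), no filter (-0.003), the authors' normalised values (-0.067) and without library 1 of both groups (-0.078), and ATOX1 in the blocked fit with trends removed (-0.066). The causes were not tested. Genes most like a member, at a limit of 0.95, were fewer by Spearman's rho than by Pearson's r for SLC31A1 (93 for 347), CCS (125 for 658), ATOX1 (45 for 96), ATP7A (62 for 87) and ATP7B (3 for 8). They were more for SLC31A2 (61 for 53). With 6 libraries rho takes few values, so the same limit is not alike for both measures.

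The counts for the other lists are to be read beside the shares of all genes called. These were 9.05% with DESeq2, 23% with the block and 45.6% with the block and trends removed. Other copper genes called higher numbered 0 with DESeq2, which gave the SCO2 entry no adjusted p, 2 with the block, 8 with the block and trends removed, 0 without library 1 of both groups and 0 to 1 when 1 library was left out. Those called lower numbered 0 without a filter, with DESeq2 and with the authors' values, 4 with the block, 5 with the block and trends removed, 0 without library 1 of both groups and 0 in every fit that left out 1 library. For other cation transporters and LRRC8 genes, 1 was higher with the block and 2 with trends removed, and those called lower numbered 2 with DESeq2, 0 with the authors' values, 2 with the block, 4 with trends removed, 0 without library 1 of both groups and 0 to 1 without 1 library. Over all genes, leaving out 1 library left between 85 and 1194 calls, where the main comparison had 696 and DESeq2 1187. When 1 library was left out, the log2 difference in ratio ranged from -0.047 to 0.162 for ATP7A to ATP7B and from -0.407 to 0.048 for ATOX1 to CCS. Depth limits SLC22A2, SLC22A3 and SLC47A1, for which no fold can be given.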

Other observations

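The authors' normalised values order some libraries of low or variable members differently from the raw counts, since their factor differs between genes. ATP7B had 499, 564 and 690 raw counts in NT libraries 1 to 3 and 505.7, 700.1 and 607 in the authors' values, a factor of 1.01, 1.24 and 0.88, so that NT library 2 became the highest. For SLC31A1 the factor was 1.04, 1.02 and 0.923 in the same libraries. SLC47A1 had 7, 4 and 2 raw counts in NT against 3.64, 5.43 and 6.68 in the authors' values, which reverses their order.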
